A study of Arabidopsis thaliana with 123 samples.

Results

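Seeds of Arabidopsis thaliana that carried both the abi3-12 and the dog1-4 allele were compared at 22 and at 18 days after pollination (DAP). The comparison rests on 3 RNA-seq libraries at each stage, 6 of the 123 libraries of the series. They were taken by their labels alone (genotype, stage and batch B), every gene of the table was included, and no measured value entered the choice. Both groups were whole seeds in the Col-0 background without a treatment, and the labels call the line a knock-out of both loci. That word is the labels' own, and how much ABI3 or DOG1 function remained was not measured. The same line was also sampled at 20 DAP, 24 DAP and in dry seed, with 3 libraries each. The courses set beside it come from the same batch. They are those of the wild type Col-0 (3 libraries at each stage), of abi3-12, labelled a knock-out (2 at 18 DAP and 3 at 22 DAP), and of the line abi3-12 dog1-4 cyp707a2 (3 at each stage). Seeds of several siliques were pooled per the labels, which do not settle whether the libraries of a group came from separate plants. The p-values therefore measure spread between libraries, estimated over the 92 libraries of batch B. In whole seeds, fewer cells of a type and less RNA per cell cannot be told apart.

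Seed maturation in Arabidopsis is run by a small set of transcription factors. ABI3, FUS3 and LEC2 carry a B3 domain that binds the RY element, and LEC1 is a histone-fold protein. They switch on the genes of storage proteins, oil bodies and late embryogenesis abundant (LEA) proteins, the latter together with abscisic acid (ABA) and bZIP factors such as ABI5 that bind the ABRE. DOG1 sets the depth of dormancy and acts with ABA signalling phosphatases. A wild-type seed ends this program by losing its chlorophyll, drying and falling quiescent, and takes up photosynthesis and cell division after germination. The comparison asks what the seed transcriptome of abi3-12 dog1-4 does over the days in which the wild type completes late maturation.

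The 6 libraries held 9758412 to 12174429 counts, and the 10 genes with the most counts in each library took 23.9% to 29.5% of the counts at 18 DAP against 6.02% to 7.65% at 22 DAP. Levels are given as CPM, the usual unit of reads of a gene relative to library size, after scaling with trimmed mean of M values (TMM) factors, which lay near 1 at 18 DAP (0.993 to 1.07) and at 1.43 to 1.49 at 22 DAP, so changes are relative to that scaling. With library totals alone the median log2 fold change of the genes moved up by 0.49. In wild type the factors were 0.568 to 0.630 at 18 DAP and 0.764 to 0.879 at 22 DAP, so CPM levels set between the lines also depend on the scaling. Wild type at 18 DAP (replicate 1) and at 22 DAP (replicate 3) were the shallowest libraries of these stages, with 3730809 and 3109231 counts. As a check of the label seed, the storage protein genes held 18.5% to 24.0% of the counts at 18 DAP. The separate levels of near-identical gene copies, such as the 2S albumins SESA1 to SESA4, depend on how the authors' counting divided reads among them.

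ABI3 and DOG1 were read first. ABI3 (AT3G24650, chr3:8997370-9001185 in TAIR10.1) was still transcribed in the line, with 283, 322 and 303 CPM in the 3 libraries at 18 DAP, 322, 329 and 350 CPM at 20 DAP, then 178, 162 and 156 CPM at 22 DAP. It fell from 18 to 22 DAP in every library (log2 fold change -0.87, SE 0.10, adjusted p 1.8e-11), as it did in wild type, where it went from 411, 440.3 and 423 to 242, 242 and 222 CPM, and the 2 courses were not told apart (difference -0.02, adjusted p 0.98). Where the abi3-12 lesion lies relative to the counted reads is not given in the sources used here, so this level does not check the label. DOG1 (AT5G45830, chr5:18589418-18591506) had 14.6, 13.2 and 14.6 CPM at 18 DAP where wild type had 434, 436 and 481 CPM. It fell to 0.968, 0.741 and 0.758 CPM at 22 DAP (log2 fold change -4.08, SE 0.36, adjusted p 5.9e-16), and wild type fell to 59.4, 119 and 74.7 CPM. Every abi3-12 dog1-4 library thus lay far below every wild-type library at both stages. CYP707A2, an ABA hydroxylase of maturing seeds, was highest at 20 DAP. It had 25.7, 9.53 and 9.29 CPM at 18 DAP, followed by 42.6, 56.4 and 53.3 CPM at 20 DAP, then 6.26, 4.75 and 8.06 CPM at 22 DAP (22 against 18 DAP -1.24, SE 0.28, adjusted p 6.5e-05). That difference rests on replicate 1 of 18 DAP, without which it was -0.57 and not called (adjusted p 0.073). In wild type it rose from 5.96, 12.4 and 8.85 to 130.2, 107 and 115 CPM, and the course difference was -4.83 on the log2 scale (adjusted p 3.9e-16). The line labelled abi3-12 dog1-4 cyp707a2 had 0, 0.882 and 0.895 CPM at 18 DAP, then 15.72, 14.5 and 12.2 CPM at 22 DAP, below every abi3-12 dog1-4 library at 18 DAP and above every one at 22 DAP. The transcript therefore does not show a loss at 22 DAP, and where the lesion lies relative to the counted reads is not given in the sources used here. ABA2, the short-chain dehydrogenase of ABA synthesis, went from 8.39, 9.04 and 11.1 CPM to 5.24, 5.43 and 5.65 CPM (-0.81, SE 0.16, adjusted p 7.9e-06; with library totals -0.30, adjusted p 0.087).

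Much of the transcriptome moved between the stages. Of 20912 genes tested, 14730 differed between 22 and 18 DAP at an adjusted p under 0.05 (edgeR's quasi-likelihood test with Benjamini-Hochberg adjustment), which is 70.4%, with 7397 higher (35.4%) and 7333 lower (35.1%) at 22 DAP. At least 2-fold changes numbered 4153 up and 4168 down (19.9% each). The 3 libraries of each stage did not overlap for 15099 genes (72.2%; 36.2% higher and 36% lower at 22 DAP). A list is therefore described by its counts against these shares and by its median log2 fold change against a median of 0 over the genes tested. In wild type 12735 genes were called (60.9%; 6270 higher, 30%, and 6465 lower, 30.9%). The course difference between the lines, which is the change in abi3-12 dog1-4 minus that in wild type, was called for 11009 genes (52.6%; 4968 positive, 23.8%, and 6041 negative, 28.9%). With library totals alone 71.1% of the called genes were higher at 22 DAP in place of 50.2%.

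More of the rises were called in the second interval than in the first, and the falls were spread over both. Between 18 and 20 DAP 10375 genes were called (49.6%; 22.6% higher and 27% lower), and between 20 and 22 DAP 13347 (63.8%; 34.3% higher and 29.5% lower). Of the 4153 genes that rose at least 2-fold over the whole interval, 1776 were called higher by 20 DAP and 3646 were called higher from 20 to 22 DAP, with medians of 0.54 and then 1.62 on the log2 scale. Of the 4168 that fell at least 2-fold, 2765 were called lower by 20 DAP and 2984 afterwards, with medians of -0.95 and then -1.25. Both intervals share the 20 DAP libraries, so they are not independent. Across the tested genes, the 18 DAP libraries were nearest wild type at 18 DAP of the same batch (mean Spearman correlation 0.942) and about as near 16 DAP of the other batch (0.941), and the 20 DAP libraries were nearest wild type at 20 DAP of the same batch (0.907) and about as near 22 DAP of that batch (0.905) and 18 DAP of the other batch (0.905). At 22 DAP the highest of the correlations with a wild-type stage was 0.801, with 24 DAP of the same batch. With wild type at 22 DAP of that batch the correlation was 0.771, where abi3-12 and abi3-12 dog1-4 cyp707a2 at 22 DAP had 0.959 and 0.942. The highest of abi3-12 dog1-4 cyp707a2 was 0.952, with wild type at 24 DAP. These correlations are across genes, which are not independent replicates, and are given as a description.

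**Figure D1:**
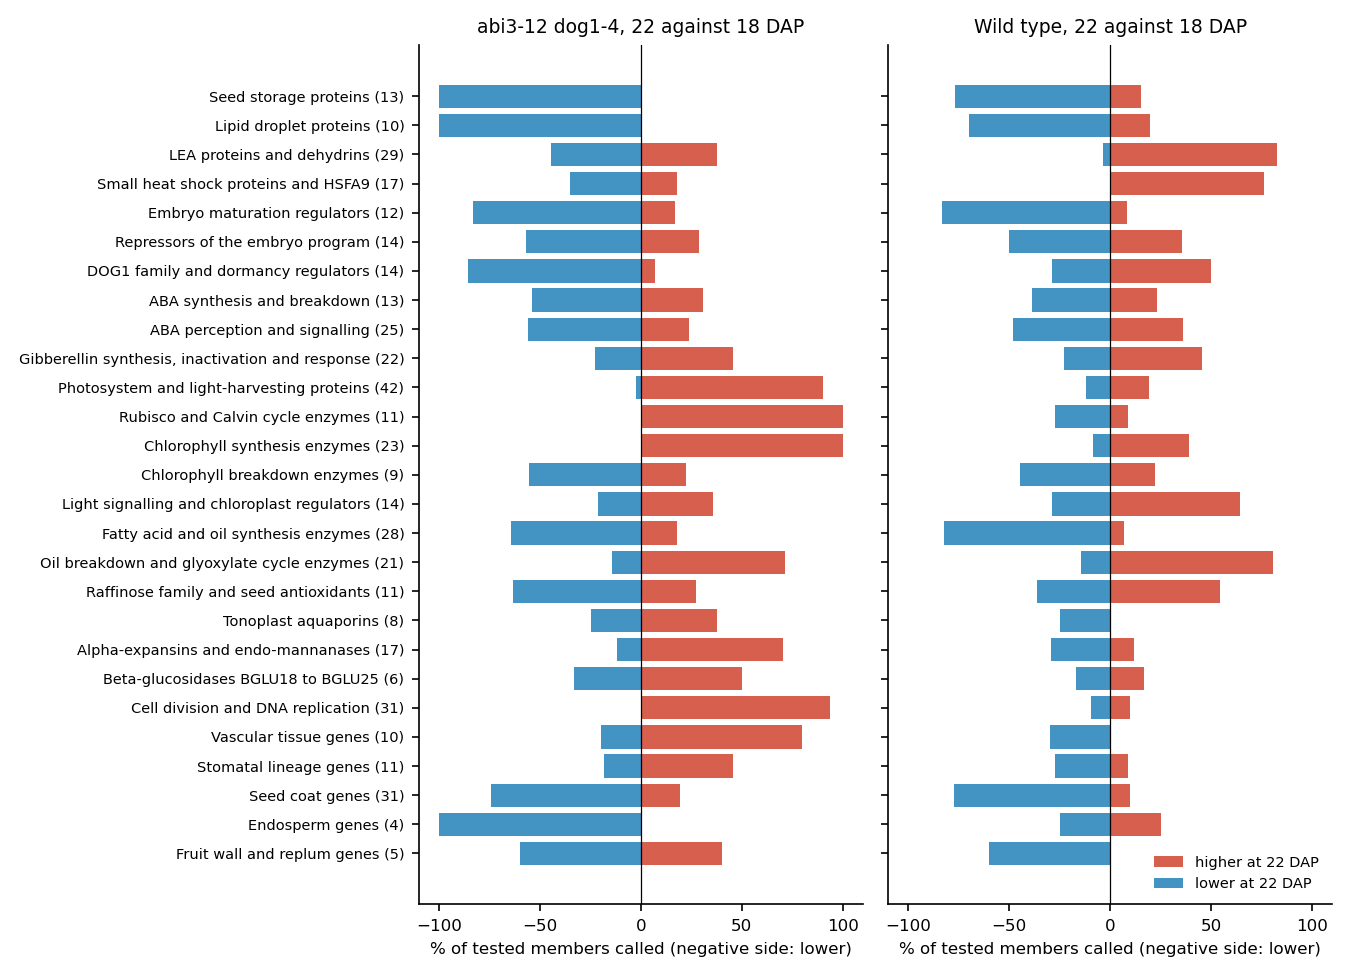
Share of the tested members of each of 27 gene lists called higher or lower at 22 than at 18 DAP (percent of members, adjusted p under 0.05), with abi3-12 dog1-4 on the left and wild type on the right. In abi3-12 dog1-4 storage protein and lipid droplet genes lie fully on the lower side and chlorophyll synthesis genes fully on the higher side, while in wild type the LEA genes lie mostly on the higher side.

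Storage protein genes fell, and with them a large share of all counts. The list holds cruciferins, the 12S globulins, and 2S albumins, with vicilin-like relatives. In abi3-12 dog1-4 it made up 20.9% ± 2.86 (SD, n = 3) of all counts at 18 DAP, 18.7% ± 2.31 at 20 DAP and 2.02% ± 0.941 at 22 DAP. The share fell in wild type as well, from a higher start. Its wild-type means were 43.9% at 18 DAP, 30.5% at 20 DAP and 12.2% at 22 DAP. Of the 13 tested members of the list 0 were higher and 13 lower at 22 DAP in abi3-12 dog1-4, with a median of -4.08. In wild type 2 were higher and 10 lower with a median of -2.88. CRU3 (AT4G28520), a cruciferin, had 57083, 79681 and 70107 CPM at 18 DAP, then 6076, 1954 and 7065 CPM at 22 DAP (log2 fold change -3.78, SE 0.33, adjusted p 2.9e-16). Its fall was shared by the other cruciferins. CRA1 went from 24725, 27974 and 22950.5 to 2335, 1179 and 3520.1 CPM (-3.43, SE 0.30, adjusted p 2.4e-16), and CRU2 from 15853, 24569 and 17626 to 1091, 322 and 1381 CPM (-4.38, SE 0.39, adjusted p 3.5e-16). Replicate 2 at 22 DAP was the lowest for all 3. The cruciferin-like AT1G03890 fell furthest, from 1687, 2659 and 2133 CPM through 771, 303 and 592 CPM at 20 DAP to 7.18, 2.22 and 13.2 CPM (-8.17, SE 0.61, adjusted p 2.6e-19). The 2S albumin SESA3 (AT4G27160) went from 13548, 20624 and 15141 to 1062, 475 and 1379.7 CPM (-4.08, SE 0.34, adjusted p 2.8e-17).

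Other storage genes fell in abi3-12 dog1-4 without falling in wild type over the same days. PAP85, a vicilin-like protein, fell from 716, 1107 and 917 to 18.6, 12.8 and 33.7 CPM (-5.40, SE 0.31, adjusted p 5.6e-25), and in wild type rose from a mean of 7890.3 to 30787 CPM (course difference -7.36, adjusted p 2.6e-24). The 2S albumin SESA5 fell from 7536, 12112 and 8846 to 375, 39.6 and 362 CPM (-5.20, SE 0.50, adjusted p 1.5e-14) against wild-type means of 5242 and 8056 CPM, a change not called there (adjusted p 0.2; course difference -5.82, adjusted p 5.7e-12). Over the list, 9 of 13 members had a called negative course difference against wild type and 0 a positive one. For CRU3, SESA1, SESA2 and SESA4 the difference was not called. Against abi3-12 dog1-4 cyp707a2 13 of 13 were negative (26.4% of the genes tested were called negative there) and against abi3-12 10 of 13 (27%). These 3 differences share the abi3-12 dog1-4 libraries and are not independent of each other.

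Lipid droplet proteins fell with them. Oleosins, which coat oil bodies, caleosins and steroleosins held 2.53% ± 0.291 of the counts at 18 DAP and 0.143% ± 0.0572 at 22 DAP, against 5.49% ± 0.228 and 4.17% ± 0.553 in wild type. Of the 10 members 10 were lower (median -4.84), and 10 of 10 had a called negative course difference against wild type. OLEO1 (AT4G25140) had 12039, 16948 and 15294 CPM at 18 DAP, followed by 10086, 8708 and 10203 CPM at 20 DAP, then 515, 369.8 and 752 CPM at 22 DAP (-4.76, SE 0.26, adjusted p 6.9e-26). OLEO2 went from 2641, 3437 and 3456 to 90.9, 103 and 120.2 CPM (-4.92, SE 0.21, adjusted p 3.5e-31), and OLEO4 from 1275, 1857 and 1798 to 9.40, 4.26 and 19.3 CPM (-7.23, SE 0.43, adjusted p 9.9e-24). At 22 DAP the highest OLEO4 library was far below the lowest at 18 DAP. AT4G26740, a caleosin, went from 780.3, 1179 and 1103 to 5.58, 2.16 and 9.58 CPM (-7.48, SE 0.42, adjusted p 3.6e-25), where wild type still had 1693 CPM at 22 DAP. AT5G50600 and AT5G50700, identical copies of the steroleosin HSD1, carried the same counts and are 1 measurement.

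The promoters of both groups hold the sequence that B3 factors bind. The windows of SESA3 and OLEO1 are shown because these are the storage and oil body genes described above. They are the 250 bases before the annotated start, from RefSeq TAIR10.1, 5′ to 3′, with the RY core CATGCA and its reverse complement in capitals.
SESA3 (AT4G27160), chr4:13611546-13611795, plus strand: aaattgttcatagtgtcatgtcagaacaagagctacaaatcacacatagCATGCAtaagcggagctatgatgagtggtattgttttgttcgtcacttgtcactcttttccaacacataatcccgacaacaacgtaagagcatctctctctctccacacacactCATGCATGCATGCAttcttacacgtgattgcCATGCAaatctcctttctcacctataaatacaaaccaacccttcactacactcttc
OLEO1 (AT4G25140), chr4:12900180-12900429, plus strand: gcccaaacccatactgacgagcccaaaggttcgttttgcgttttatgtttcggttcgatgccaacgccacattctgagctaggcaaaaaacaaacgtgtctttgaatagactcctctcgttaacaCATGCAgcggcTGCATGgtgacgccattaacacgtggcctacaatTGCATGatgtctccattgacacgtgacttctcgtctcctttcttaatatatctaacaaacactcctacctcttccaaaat
The SESA3 window held 7 matches of CATGCA on both strands, counting those that overlap, and the OLEO1 window 3. The motif stood in 11 of 13 storage protein promoters and in 10 of 10 lipid droplet promoters, against 7.71% of the 20454 promoters of tested genes that could be read. Among genes at least 2-fold lower at 22 DAP 10.1% held it, and among those at least 2-fold higher 8.38%. A match describes the letters and is not a measured binding site.

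**Figure D2:**
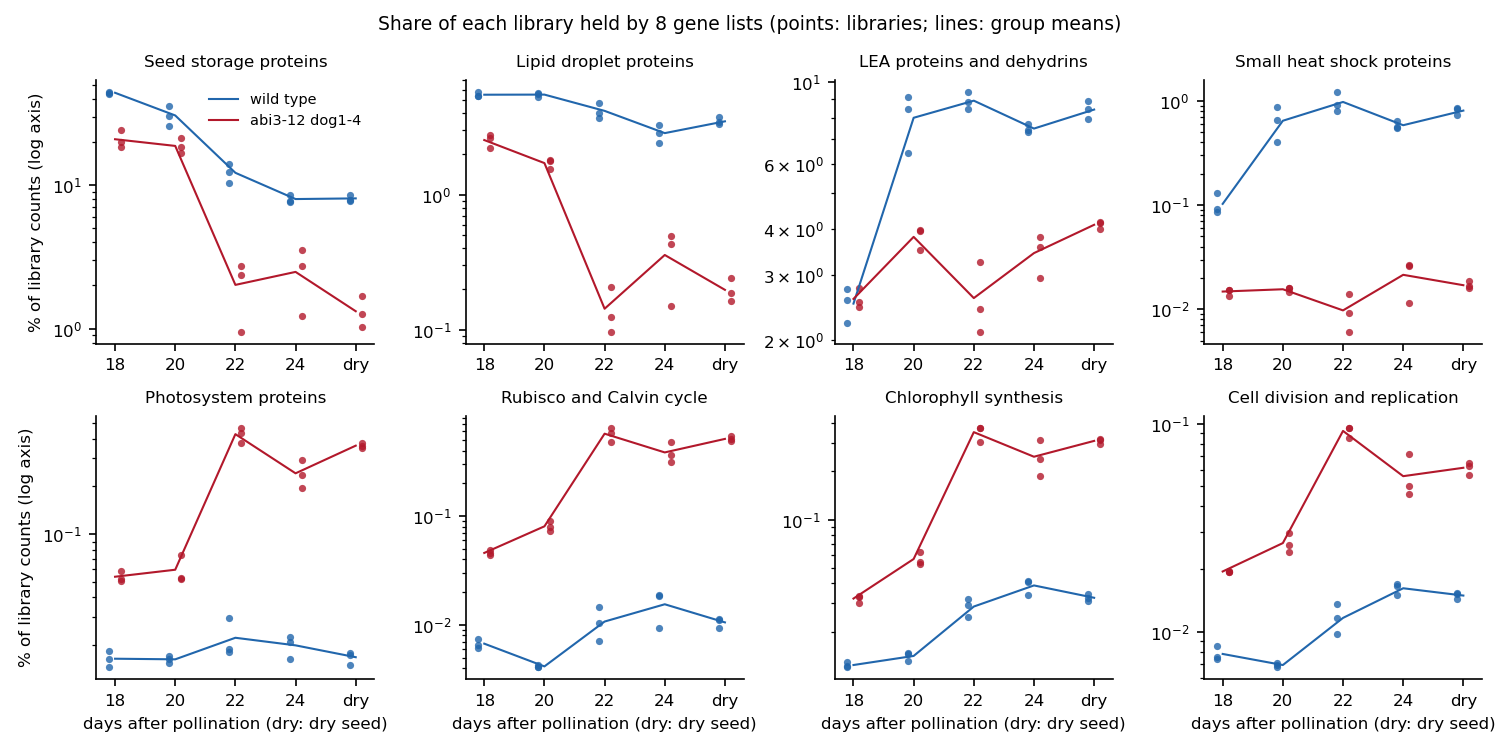
Share of library counts (percent, log axis) held by 8 gene lists at 18, 20, 22 and 24 DAP and in dry seed, with abi3-12 dog1-4 in red and wild type in blue, points for libraries and lines for means. The storage protein share of abi3-12 dog1-4 was 20.9% at 18 DAP, 18.7% at 20 DAP and 2.02% at 22 DAP, while its photosystem share went from 0.0598% at 20 DAP to 0.426% at 22 DAP.

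LEA proteins and dehydrins, hydrophilic proteins of drying seeds, rose to 20 DAP and then fell to 22 DAP. Between 18 and 20 DAP 24 of 29 tested members were higher and 1 lower (median 0.94), and between 20 and 22 DAP 0 were higher and 24 lower (median -1.32). Over the whole interval 11 were higher and 13 lower, with a median of -0.13, which became 0.37 (15 higher, 11 lower) with library totals alone. In wild type 24 were higher and 1 lower (median 1.46), and the course difference was negative for 25 and positive for 1. LEA18 (AT2G35300) had 69.6, 44.3 and 52.3 CPM at 18 DAP, followed by 235, 230 and 236 CPM at 20 DAP, then 144, 219.6 and 108 CPM at 22 DAP (1.51, SE 0.21, adjusted p 1.8e-09), where the wild-type means went from 244 to 2295 CPM. The dehydrin RAB18 (AT5G66400) had 2202, 1475 and 1221 CPM, then 5031, 3837 and 4602 CPM, then 1644, 3399.6 and 1978 CPM, so that the libraries of 22 and 18 DAP overlapped (0.52, SE 0.19, adjusted p 0.013). The call was lost without replicate 2 or 3 of 18 DAP or replicate 2 of 22 DAP (adjusted p 0.059, 0.14 and 0.43). In wild type it rose from 5766 to 24729 CPM. ATECP31 fell from 80.3, 50.1 and 37.3 to 12.3, 13 and 31.8 CPM (-1.56, SE 0.31, adjusted p 7.5e-06), with a wild-type rise from 314 to 4134 CPM and a course difference of -5.28 (adjusted p 2.7e-16).

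The 2 Em proteins, textbook targets of ABI3 and ABI5, parted from each other. EM1 (AT3G51810) fell from 1622, 1076 and 1413 to 398, 526 and 277 CPM (-1.78, SE 0.16, adjusted p 3.1e-15). GEA6 (AT2G40170), also known as EM6, rose from 44.2, 24.3 and 23.4 through 138, 129.9 and 137 CPM at 20 DAP to 76.5, 139 and 59.8 CPM (1.58, SE 0.24, adjusted p 2.2e-08), far under its wild-type means of 1622 and 12004 CPM. Both promoters are shown because they carry the same ABA-response core while the genes moved in opposite directions, with ACGTG and its reverse complement in capitals.
EM1 (AT3G51810), chr3:19214472-19214721, plus strand: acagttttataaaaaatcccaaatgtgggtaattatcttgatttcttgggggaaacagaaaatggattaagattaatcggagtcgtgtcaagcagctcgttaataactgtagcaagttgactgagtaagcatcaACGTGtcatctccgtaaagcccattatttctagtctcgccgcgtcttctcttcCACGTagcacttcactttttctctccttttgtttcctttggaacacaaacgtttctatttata
GEA6 (AT2G40170), chr2:16780369-16780618, minus strand: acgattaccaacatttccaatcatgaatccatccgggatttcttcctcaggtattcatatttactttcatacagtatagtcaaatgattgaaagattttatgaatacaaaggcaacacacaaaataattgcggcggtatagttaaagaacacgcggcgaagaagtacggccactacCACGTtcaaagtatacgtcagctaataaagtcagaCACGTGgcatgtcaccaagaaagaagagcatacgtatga
ACGTG stood in 86.2% of the LEA promoters against 24.2% of all promoters read. It was also in 70% of the lipid droplet and 69.2% of the storage protein promoters, so it is shared by genes with unlike courses.

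Small heat shock proteins, chaperones that accumulate in late wild-type maturation and stand under HSFA9, their seed regulator, were low in abi3-12 dog1-4. The list held 0.0148% ± 0.00109 of the counts at 18 DAP and 0.00977% ± 0.00392 at 22 DAP, against 0.103% ± 0.0238 and 0.975% ± 0.214 in wild type. Of 17 tested members 3 were higher and 6 lower, in wild type 13 were higher and 0 lower, and 10 course differences were negative. HSP17.4 (AT3G46230) fell from 22.8, 24.1 and 18.3 to 1.94, 3.83 and 3.31 CPM (-2.85, SE 0.36, adjusted p 1.2e-10), where wild type rose from 736 to 4822 CPM. HSFA9 had 1.69, 0.289 and 0.397 CPM at 18 DAP, then 0, 0 and 0.414 CPM at 22 DAP with a peak of 4.48, 4.16 and 2.91 CPM at 20 DAP between them, and 424, 569 and 432 CPM in wild type at 22 DAP.

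The regulators of embryo maturation fell too. Of 12 tested members 2 were higher and 10 lower (median -1.90), and in wild type 1 was higher and 10 lower. LEC1, LEC2, MYB118 and MYB115 were not tested, with at most 3 counts in any of the 6 libraries. FUS3 (AT3G26790), the B3 factor of storage and hormone balance, had 33.8, 44.5 and 48.6 CPM at 18 DAP, followed by 21.4, 22.8 and 28.9 CPM at 20 DAP, then 1.82, 1.91 and 2.14 CPM at 22 DAP (-4.43, SE 0.21, adjusted p 1.8e-28). Its wild-type fall, from 105 to 28.4 CPM, was smaller (course difference -2.60, adjusted p 2.3e-12). WRI1, the AP2 factor that drives fatty acid synthesis, went from 25.0, 37.5 and 38.7 to 2.68, 2.78 and 3.52 CPM (-3.50, SE 0.27, adjusted p 2.9e-18), and the fall in wild type was not told apart from it (course difference 0.62, adjusted p 0.24). DPBF2, a bZIP factor also known as bZIP67, fell from 233, 273 and 311 to 14.9, 8.34 and 13.6 CPM (-4.47, SE 0.31, adjusted p 2.1e-20). The wild-type fall, to a mean of 1.34 CPM, was larger (course difference 2.56, adjusted p 2.4e-04). BZIP53, which partners with other bZIP factors on storage promoters, fell from 70.0, 82.8 and 71.7 to 15.9, 19.4 and 19.9 CPM (-2.02, SE 0.17, adjusted p 1.6e-17). ABI5, the bZIP factor of late maturation, peaked at 20 DAP with 229.8, 197 and 221 CPM. It had 81.3, 97.3 and 60.9 CPM before and 114, 166 and 93.1 CPM after (0.64, SE 0.18, adjusted p 0.0014; not called without replicate 2 of 22 DAP, 0.40, adjusted p 0.058), so the libraries of 18 and 22 DAP overlapped. Wild type rose from 278 to 580.1 CPM.

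Of 14 repressors of the embryo program, the VAL proteins, PICKLE and Polycomb components, 4 were higher and 8 lower, and with library totals 7 were higher and 2 lower, so no direction holds for the list. CLF, a histone methyltransferase of the Polycomb complex, rose from 7.54, 8.28 and 10.3 to 31.8, 39.4 and 30.6 CPM (1.96, SE 0.26, adjusted p 5.6e-10), where wild type fell from 3.95 to 0.555 CPM. VAL3, a B3 repressor, fell from 11.8, 13 and 10.3 to 1.59, 1.11 and 2.21 CPM (-2.84, SE 0.23, adjusted p 2.7e-17).

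Among DOG1 relatives and dormancy regulators 12 of 14 were lower and 1 higher (median -0.98; 7 lower and 2 higher with library totals), while in wild type 7 were higher and 4 lower. MFT (AT1G18100, annotated as E12A11), a seed regulator of ABA and gibberellin response, had 204, 189 and 174 CPM at 18 DAP, followed by 235, 225 and 284 CPM at 20 DAP, then 13.6, 7.84 and 22.0 CPM at 22 DAP (-3.72, SE 0.24, adjusted p 2.2e-22). In wild type no change was called (51.6 and 63.9 CPM, adjusted p 0.21; course difference -4.05, adjusted p 6.6e-17). The DOG1-like gene AT4G18680 fell from 65.5, 64.6 and 50.6 to 4.78, 1.05 and 5.72 CPM (-3.97, SE 0.27, adjusted p 2.7e-21). PIF1 (annotated as PIL5), which represses germination in the dark, was the called rise of the list, from 32.3, 21.4 and 20.2 to 76.0, 74.2 and 80.4 CPM (1.64, SE 0.17, adjusted p 2.2e-13), and rose in wild type from 2.68 to 61.2 CPM.

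ABA genes changed member by member. Of 13 genes of ABA synthesis and breakdown 4 were higher and 7 lower (5 and 4 with library totals). NCED6, a carotenoid cleavage enzyme that makes ABA in the endosperm, fell from 47.3, 47.2 and 51.6 through 16.9, 15.3 and 19.7 CPM at 20 DAP to 0.740, 0.617 and 0.827 CPM (-6.05, SE 0.26, adjusted p 5.8e-31), further than in wild type (42.3 to 5.67 CPM; course difference -3.26, adjusted p 2.0e-11). ABA1, the zeaxanthin epoxidase, rose from 70.9, 75.4 and 67.2 to 103, 134 and 99.6 CPM (0.65, SE 0.13, adjusted p 5.1e-06). CYP707A3, an ABA hydroxylase of germinating seeds and leaves, had 0.0769, 0 and 0 CPM at 18 DAP, then 1.54, 2.16 and 0.965 CPM at 22 DAP (adjusted p 9.0e-05). Of 25 genes of ABA perception and signalling 6 were higher and 14 lower (8 and 10 with library totals). The phosphatase HAI1 fell from 86.9, 74.3 and 105 to 3.70, 5.25 and 2.69 CPM (-4.50, SE 0.24, adjusted p 1.2e-26), and the receptor genes PYL6 from 15.9, 21.2 and 25.7 to 0.626, 0.679 and 0.965 CPM (-4.78, SE 0.39, adjusted p 2.2e-17) and PYL3 from 28.3, 23.0 and 28.7 to 0.968, 0.185 and 1.86 CPM (-4.75, SE 0.36, adjusted p 9.3e-19). AHG1, the phosphatase with which DOG1 acts, had 54.5, 40.9 and 43.0 CPM and then 40.0, 81.1 and 47.8 CPM, which was not called (adjusted p 0.11, but 0.037 without replicate 1 of 18 DAP, 0.0097 and 0.042 without replicate 1 or 3 of 22 DAP, and 1.8e-05 with library totals), while it rose in wild type from 177 to 654 CPM.

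Of 22 genes of gibberellin synthesis, inactivation and response 10 were higher and 5 lower (3 lower with library totals). GA3OX2, which makes bioactive gibberellin in germinating seeds, had 0.154, 0 and 0 CPM at 18 DAP, a mean of 0.545 CPM at 20 DAP, then 12.2, 5.87 and 14.4 CPM at 22 DAP (adjusted p 4.4e-09), and no count in the 6 wild-type libraries of 18 and 22 DAP. GA3OX1 was at 0 at 18 DAP and had 1.14, 0.556 and 1.24 CPM at 22 DAP, at least 3.87-fold higher over the floor of 3 counts per library (adjusted p 8.4e-04, but 0.66 with DESeq2). GA20OX3, a gibberellin 20-oxidase of the embryo, fell from 214, 246 and 211 to 29.9, 21.0 and 33.4 CPM (-2.99, SE 0.30, adjusted p 5.7e-14). The DELLA repressor RGL2, which holds back germination, rose from 70.0, 54.3 and 52.6 to 161, 187 and 129 CPM (1.43, SE 0.18, adjusted p 7.3e-11), and RGL3 from 24.2, 26.3 and 18.4 to 94.3, 105 and 75.2 CPM (2.00, SE 0.18, adjusted p 4.6e-16).

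**Figure D3:**
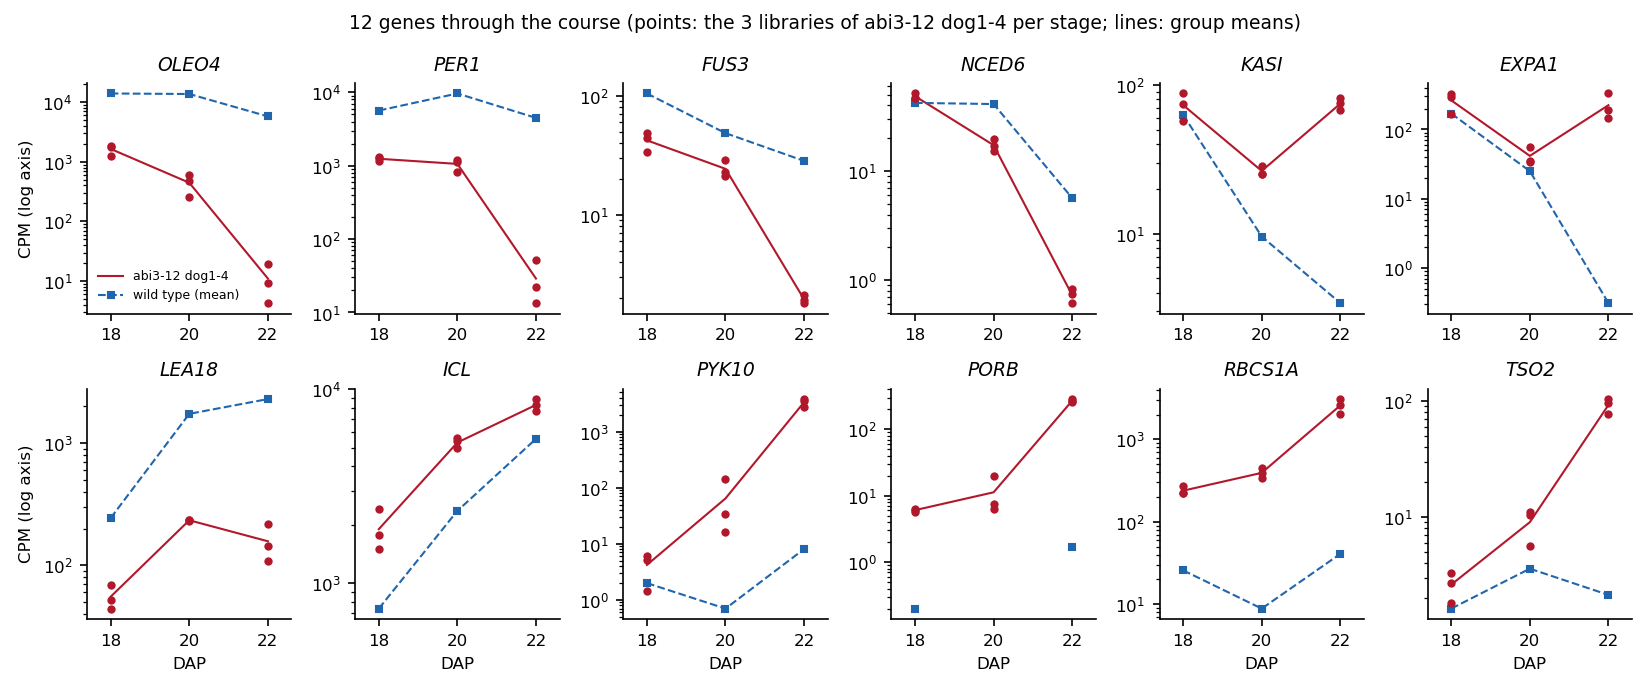
Levels (CPM, log axis) of 12 genes at 18, 20 and 22 DAP, with points and a line of means for the libraries of abi3-12 dog1-4 and a dashed line of means for wild type. OLEO4, PER1, FUS3 and NCED6 drop from 20 to 22 DAP, LEA18 peaks at 20 DAP, and PYK10, PORB, RBCS1A and TSO2 climb from 20 to 22 DAP. A mean of 0 is not drawn, which applies to PORB in wild type at 20 DAP.

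Nuclear photosynthesis genes rose. Photosystem and light-harvesting genes held 0.0540% ± 0.00410 of the counts at 18 DAP, 0.0598% ± 0.0124 at 20 DAP and 0.426% ± 0.0477 at 22 DAP, against 0.0165% ± 0.00192 and 0.0223% ± 0.00643 in wild type. Of 42 members 38 were higher and 1 lower (median 2.53), in wild type 8 were higher and 5 lower, and 26 course differences were positive and 0 negative. PSAD-1, a stromal subunit of photosystem I, had 4.69, 4.43 and 4.77 CPM at 18 DAP, followed by 12.2, 10.1 and 9.78 CPM at 20 DAP, then 87.9, 89.6 and 75.8 CPM at 22 DAP (4.18, SE 0.22, adjusted p 6.4e-27). LHCB4.2, an antenna protein of photosystem II, rose from 5.15, 5.48 and 5.0 to 28.6, 40.3 and 29.4 CPM (2.65, SE 0.14, adjusted p 4.2e-26), and PSBP-1, of its oxygen-evolving complex, from 14.8, 14.7 and 15.73 to 168, 180 and 140.1 CPM (3.43, SE 0.19, adjusted p 3.5e-25). For these 3 genes the stages did not overlap. Plastid-encoded genes, seen here through libraries of polyadenylated RNA, did not share the rise of the nuclear ones: they held 0.439% ± 0.0856 of the counts at 18 DAP, 0.205% ± 0.0700 at 20 DAP and 0.236% ± 0.134 at 22 DAP. The exception among the nuclear genes, LHCB4.3, fell from 22.2, 28.4 and 28.5 to 16.7, 16.7 and 14.3 CPM (-0.73, SE 0.15, adjusted p 3.2e-05; with library totals -0.22, adjusted p 0.19). PETC, the Rieske protein, held 88.2, 105 and 93.4 CPM and then 109, 125 and 98.6 CPM, not called (adjusted p 0.27, and 1.7e-04 with library totals), where wild type fell from 125 to 11.8 CPM (course difference 3.63, adjusted p 4.9e-18).

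All 11 genes of Rubisco and the Calvin cycle were higher (median 2.81; wild type 1 higher, 3 lower), and their share of counts went from 0.0458% ± 0.00229 to 0.571% ± 0.0841. RBCS1A, a small subunit of Rubisco, had 224, 223 and 268 CPM at 18 DAP, followed by 452, 388 and 337 CPM at 20 DAP, then 2636, 3083 and 2023 CPM at 22 DAP (3.44, SE 0.30, adjusted p 4.1e-16), against 40.8 CPM in wild type at 22 DAP. RCA, the Rubisco activase, rose from 14.5, 21.4 and 19.2 to 108, 114 and 102 CPM (2.56, SE 0.16, adjusted p 1.3e-22). The small subunits RBCS1B, RBCS2B and RBCS3B lie beside each other and are near-identical, so their separate levels depend on the counting.

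Chlorophyll synthesis rose as a block: 23 of 23 enzymes and subunits were higher (median 3.14; wild type 9 higher, 2 lower), and 18 course differences were positive. HEMC, the porphobilinogen deaminase early in the path, had 33.8, 32.7 and 30.5 CPM at 18 DAP, followed by 74.2, 69.7 and 69.0 CPM at 20 DAP, then 283, 274 and 228 CPM at 22 DAP (3.02, SE 0.12, adjusted p 1.3e-32). CHLI1, a subunit of the magnesium chelatase, rose from 11, 13.1 and 12.9 to 164, 162 and 138 CPM (3.65, SE 0.26, adjusted p 6.4e-20), and CRD1, a subunit of the cyclase, from 15.69, 20.6 and 16.9 to 195, 205 and 154 CPM (3.38, SE 0.27, adjusted p 1.1e-17). The 3 protochlorophyllide oxidoreductases, the light-dependent step, rose together. PORB went from 5.77, 6.16 and 6.28 to 286, 268 and 255 CPM (5.47, SE 0.36, adjusted p 1.2e-20), PORC from 1.69, 0.674 and 0 to 71.4, 67.5 and 54.9 CPM (6.31, SE 0.34, adjusted p 2.0e-25), and PORA, at 0 at 18 DAP, to 12.0, 20.6 and 13.5 CPM, at least 60.9-fold higher (adjusted p 3.8e-11). Wild type had 1.7 CPM of PORB at 22 DAP. Among the 9 breakdown genes 2 were higher and 5 lower (4 and 3 with library totals). NYE1, the STAY-GREEN protein that starts chlorophyll loss, fell from 235, 181 and 208 to 27.5, 22.1 and 32.7 CPM (-2.92, SE 0.37, adjusted p 1.7e-10), and NYC1, the chlorophyll b reductase, from 198, 159.9 and 164 to 29.4, 38.0 and 39.1 CPM (-2.29, SE 0.17, adjusted p 3.5e-19). In wild type these 2 genes were not called between the stages (adjusted p 0.091 and 0.41).

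Of 14 light signalling and chloroplast regulators 5 were higher and 3 lower (11 higher with library totals). GLK1 (annotated as GPRI1), a transcription factor that drives chloroplast genes, rose from 2.92, 3.75 and 3.26 to 24.7, 26.6 and 23.0 CPM (2.91, SE 0.20, adjusted p 8.1e-21), and its relative GLK2 from 20.3, 22.6 and 20.4 to 46.5, 49.3 and 48.0 CPM (1.18, SE 0.17, adjusted p 4.9e-09). PHYA, the phytochrome of seeds and dark-grown seedlings, rose from 135, 98.1 and 91.3 to 262, 295 and 286 CPM (1.38, SE 0.11, adjusted p 2.7e-17), a smaller rise than in wild type (course difference -0.65, adjusted p 6.1e-04).

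Fatty acid and oil synthesis fell and partly came back. Over the 28 tested genes the median was -1.32 by 20 DAP, when 2 were higher and 22 lower, and 0.60 from 20 to 22 DAP (14 higher, 7 lower). Over the whole interval 5 were higher and 18 lower (median -0.81; 10 higher and 13 lower with library totals), against 2 higher and 23 lower in wild type (median -2.66), and 20 course differences were positive and 5 negative. KASI, the condensing enzyme of fatty acid elongation, had 57.0, 75.1 and 87.7 CPM at 18 DAP, followed by 28.7, 25.3 and 25.4 CPM at 20 DAP, then 81.6, 75.6 and 67.4 CPM at 22 DAP. It did not differ between 22 and 18 DAP by the test (adjusted p 0.9, and 0.017 with library totals), while wild type fell from 63.1 to 3.42 CPM (course difference 4.13, adjusted p 9.3e-16). MOD1, the enoyl-ACP reductase, followed the same path with 52.1, 66.9 and 72.0, then 24.6, 19.6 and 21.1, then 67.6, 64.8 and 58.7 CPM. CAC1, the biotin carrier of acetyl-CoA carboxylase, ended higher, from 15.2, 16.4 and 17.5 to 38.8, 37.0 and 34.9 CPM (1.18, SE 0.23, adjusted p 6.0e-06), where its seed isoform BCCP2 fell from 46.2, 71.0 and 67.4 to 17.7, 14.9 and 15.6 CPM (-1.93, SE 0.22, adjusted p 1.1e-11). The thioesterase FaTA fell from 52.5, 66.0 and 67.7 to 7.06, 6.24 and 7.10 CPM (-3.19, SE 0.24, adjusted p 2.6e-19) and the acyl carrier ACP1 from 74.1, 99.2 and 153 to 11, 10.6 and 9.65 CPM (-3.38, SE 0.29, adjusted p 1.1e-16). FAD3, the linoleate desaturase, fell from 663, 669 and 761 to 202, 203 and 191 CPM (-1.81, SE 0.36, adjusted p 1.1e-05).

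**Figure D4:**
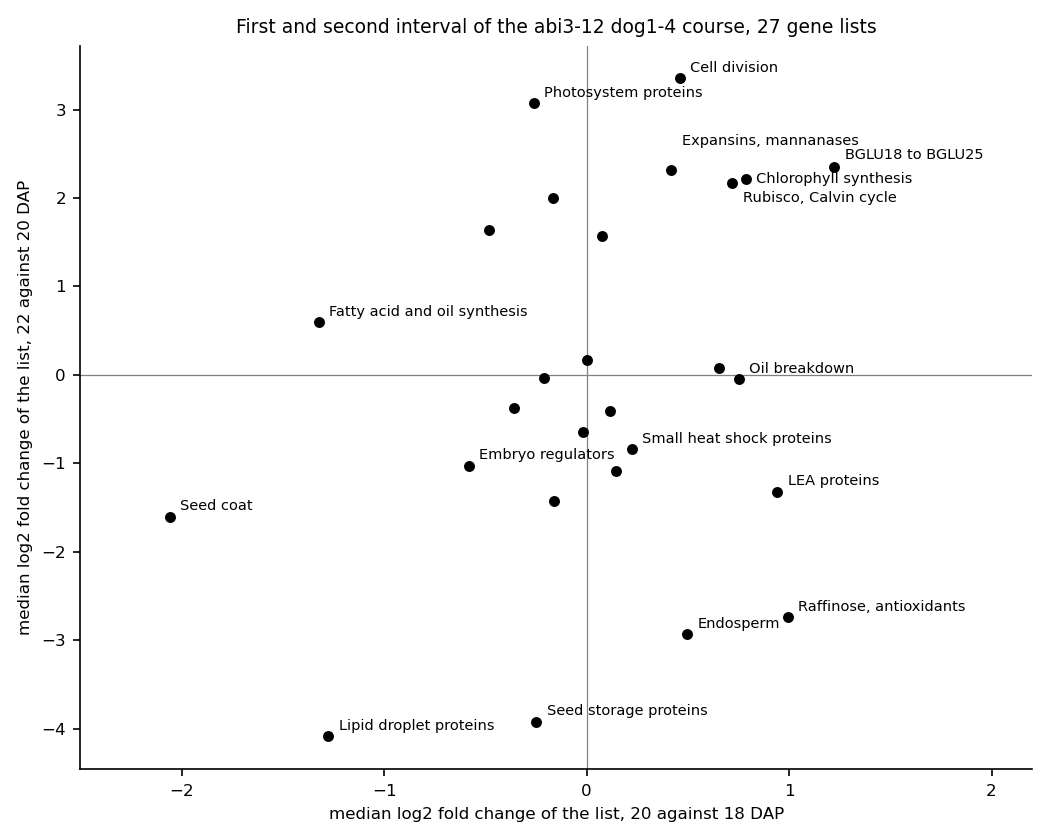
Median log2 fold change of each of 27 gene lists from 18 to 20 DAP (horizontal) and from 20 to 22 DAP (vertical) in abi3-12 dog1-4, with 16 lists named. LEA proteins lie at a rise followed by a fall, fatty acid synthesis at a fall followed by a rise, and chlorophyll synthesis and cell division rise mostly in the second interval.

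Oil breakdown was higher, 15 of 21 genes against 3 lower (median 0.63), and in wild type 17 were higher and 3 lower (median 1.07). The course difference was negative for 10 and positive for 1 (8 and 4 with RLE scaling). The share of counts went from 0.788% ± 0.137 to 2.81% ± 0.102 and in wild type from 0.244% ± 0.0147 to 1.26% ± 0.186. ICL, isocitrate lyase of the glyoxylate cycle, had 2425, 1777 and 1502 CPM at 18 DAP, followed by 5583, 5371 and 4965 CPM at 20 DAP, then 8237, 8879 and 7734 CPM at 22 DAP (2.12, SE 0.14, adjusted p 7.2e-22). MLS, the malate synthase next to it, rose from 1490.2, 1186 and 1052 to 3026, 2972 and 2781 CPM (1.24, SE 0.13, adjusted p 4.1e-13), and PCK1, which leads from oil to sugar, from 1681, 1492 and 1392 to 3567, 3529 and 3211 CPM (1.17, SE 0.10, adjusted p 2.0e-17). PMDH2, a peroxisomal malate dehydrogenase, rose from 2.77, 1.35 and 2.62 to 52.1, 58.6 and 41.6 CPM (4.46, SE 0.29, adjusted p 3.6e-21). Its wild-type mean was 0.382 CPM at 22 DAP, and the course difference was not called (adjusted p 0.85). The seed thiolase KAT5 fell from 42.3, 53.1 and 51.2 to 7.46, 5.0 and 6.69 CPM (-2.93, SE 0.34, adjusted p 1.7e-11).

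Genes of seed protection were mostly lower at 22 than at 18 DAP. Of 11 genes of raffinose sugars and seed antioxidants 3 were higher and 7 lower, in wild type 6 were higher and 4 lower, and 9 course differences were negative. From 18 to 20 DAP 6 were higher and 2 lower (median 0.99), and from 20 to 22 DAP 2 were higher and 9 lower (median -2.73). Their summed share of the counts was 0.268% ± 0.0260 at 18 DAP, 0.522% ± 0.00234 at 20 DAP and 0.383% ± 0.0304 at 22 DAP. PER1 (AT1G48130), the seed 1-cysteine peroxiredoxin, had 1159.9, 1305 and 1270.5 CPM at 18 DAP, followed by 1212, 832 and 1133 CPM at 20 DAP, then 22.0, 13.5 and 51.5 CPM at 22 DAP (-5.43, SE 0.34, adjusted p 6.7e-23), where wild type kept 5651 and 4489 CPM (course difference -5.10, adjusted p 1.8e-16). STS, the stachyose synthase, fell from 83.4, 105 and 92.3 to 10.3, 9.51 and 9.58 CPM (-3.25, SE 0.20, adjusted p 1.2e-22), and the catalase CAT1 from 228, 234 and 231 to 17.43, 18.5 and 22.9 CPM (-3.56, SE 0.15, adjusted p 1.3e-30). Another catalase moved the other way: CAT2 (AT4G35090), of leaf peroxisomes, rose from 279, 341 and 268 to 1237, 1606 and 1163 CPM (2.17, SE 0.24, adjusted p 1.0e-12). Of 8 tested vacuolar water channels 3 were higher and 2 lower (1 higher with DESeq2). TIP3;1, a channel of protein storage vacuoles, fell from 1179, 1471 and 1178 to 12.8, 4.51 and 34.4 CPM (-6.22, SE 0.43, adjusted p 8.9e-21), and its relative BETA-TIP (TIP3;2) from 958, 1188 and 1111 to 13.7, 11.1 and 35.2 CPM (-5.77, SE 0.29, adjusted p 2.5e-27). TIP2 (TIP1;2), of vegetative vacuoles, was at 0 at 18 DAP and had 4.78, 7.35 and 8.06 CPM at 22 DAP, at least 26.7-fold higher (adjusted p 3.7e-10).

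Genes of cell wall loosening and of cell division rose. Of 17 alpha-expansins, which loosen walls of growing cells, and endo-mannanases, which cut the mannans of the endosperm wall, 12 were higher and 2 lower (median 1.64; wild type 2 higher, 5 lower). EXPA2, an expansin of the germinating endosperm, had 8.08, 4.14 and 4.93 CPM at 18 DAP, followed by 26.6, 34.1 and 20.1 CPM at 20 DAP, then 163, 99.8 and 145 CPM at 22 DAP (4.55, SE 0.46, adjusted p 2.7e-12), with no count in the 6 wild-type libraries of 18 and 22 DAP. EXPA3 (annotated as EXP3) rose from 7.54, 4.62 and 3.57 to 307, 268 and 258 CPM (5.72, SE 0.41, adjusted p 1.2e-19). EXPA1 had 169.9, 299 and 323 CPM, then 55.6, 34.1 and 35.1 CPM, then 331, 148 and 194 CPM and so fell and returned, without a called change over the whole interval (adjusted p 0.7), where wild type fell from 170 to 0.311 CPM (course difference 8.41, adjusted p 1.3e-08). Of 6 tested beta-glucosidases of the clade of endoplasmic reticulum bodies 3 were higher and 2 lower (1 lower with DESeq2). PYK10 (AT3G09260) had 6.08, 1.44 and 5.08 CPM at 18 DAP, followed by 143, 34.3 and 15.9 CPM at 20 DAP, then 3530.2, 3793 and 2692 CPM at 22 DAP (9.60, SE 0.95, adjusted p 5.6e-14), and 8.05 CPM in wild type at 22 DAP. BGLU21 rose from 5.54, 2.69 and 2.70 to 481, 600.3 and 399 CPM (7.06, SE 0.59, adjusted p 7.9e-16) and BGLU22 from 0.308, 0 and 0 to 217, 228 and 192 CPM (10.77, SE 0.89, adjusted p 1.8e-12). BGLU19, which wild-type seeds carried at 9892 CPM at 22 DAP, fell from 37.8, 36.0 and 31.5 to 0, 0.803 and 0.620 CPM (-6.22, SE 0.64, adjusted p 1.3e-13).

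Of 31 tested genes of cell division and DNA replication 29 were higher and 0 lower (22 higher with DESeq2). Only 10 course differences against wild type were called positive, and 0 negative. The median log2 fold change was 4.98, and 3.80 with the 9 genes at the floor at 18 DAP set to their bound of 3 counts per library. Their summed share of counts went from 0.0195% ± 0.0000502 to 0.0922% ± 0.00592, and 19 of them were at the floor at both stages in wild type. MCM2 (AT1G44900), of the replicative helicase, had 2.85, 1.44 and 2.14 CPM at 18 DAP, followed by 5.63, 10.9 and 6.69 CPM at 20 DAP, then 41.3, 31.9 and 39.6 CPM at 22 DAP (4.1, SE 0.34, adjusted p 1.8e-16), and MCM5 1.85, 2.50 and 1.11 CPM and then 27.4, 22.0 and 25.6 CPM (3.80, SE 0.42, adjusted p 2.3e-12). TSO2, the small subunit of ribonucleotide reductase, which supplies DNA precursors, rose from 3.31, 2.69 and 1.83 through 10.4, 11.1 and 5.64 to 96.0, 77.6 and 104 CPM (5.14, SE 0.28, adjusted p 7.1e-26). MCM2, MCM5 and TSO2 were already called higher at 20 than at 18 DAP (adjusted p 2.5e-05, 0.0021 and 9.6e-07). The genes of mitosis had few counts. CYCB1;1, a cyclin of the G2 to M transition, had 0, 0 and 0.238 CPM at 18 DAP, no count at 20 DAP and 3.53, 3.64 and 2.69 CPM at 22 DAP (adjusted p 6.3e-09). CDKB2;1, a mitotic kinase, was at 0 at 18 DAP and had 8.03, 6.24 and 4.69 CPM at 22 DAP, at least 25.0-fold higher (adjusted p 3.8e-09). CYCD3;1, a cyclin of the G1 to S transition, had 0.231, 0.577 and 0.556 CPM at 18 DAP, and rose to 11.8, 11.2 and 8.55 CPM (4.53, SE 0.45, adjusted p 3.2e-11).

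The promoters of the 2 helicase genes are shown because each holds the E2F site core near its start. The core GCGGGAA, on either strand, is in capitals.
MCM2 (AT1G44900), chr1:16969964-16970213, plus strand: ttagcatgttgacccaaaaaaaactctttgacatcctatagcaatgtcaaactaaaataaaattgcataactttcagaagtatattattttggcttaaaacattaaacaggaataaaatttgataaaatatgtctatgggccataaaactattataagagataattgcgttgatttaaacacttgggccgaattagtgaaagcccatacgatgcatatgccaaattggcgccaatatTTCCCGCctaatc
MCM5 (AT2G07690), chr2:3527501-3527750, minus strand: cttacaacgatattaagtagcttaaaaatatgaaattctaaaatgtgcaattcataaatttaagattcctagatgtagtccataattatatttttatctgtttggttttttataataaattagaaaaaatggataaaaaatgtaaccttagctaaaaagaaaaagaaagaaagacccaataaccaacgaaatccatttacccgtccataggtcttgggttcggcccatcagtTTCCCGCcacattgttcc
The core stood in 19.4% of the promoters of the cell division list and in 1.21% of all promoters read, and in 1.82% of those of genes at least 2-fold higher. Of the 248 genes with it, 29.8% were at least 2-fold higher at 22 DAP, against 19.8% of those without.

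Genes known from vascular tissue and stomata moved in both directions. Of 10 vascular genes 8 were higher and 2 lower, while the share of the list in the counts was 0.0277% ± 0.00428 at 18 DAP, 0.0122% ± 0.00239 at 20 DAP and 0.0232% ± 0.00307 at 22 DAP. SEOR1, a sieve element protein, rose from 1.92, 1.73 and 1.19 to 13.1, 10.4 and 12.5 CPM (2.89, SE 0.38, adjusted p 2.0e-09) and XCP2, a protease of xylem cells, from 0.846, 0.866 and 0 to 8.37, 7.04 and 5.58 CPM (3.62, SE 0.52, adjusted p 1.9e-07). SUC2, the sucrose carrier of companion cells, fell from 191, 259 and 289.9 to 87.1, 120.2 and 67.5 CPM (-1.43, SE 0.31, adjusted p 3.5e-05). SUC2 held most of the share of the vascular list at 18 DAP. Of 11 stomatal lineage genes 5 were higher and 2 lower, and the share of the list went from 0.0335% ± 0.0111 at 18 DAP to 0.00343% ± 0.000107 at 20 DAP and 0.00584% ± 0.000644 at 22 DAP. SPCH, which starts the lineage, went from 0.923, 0.481 and 0.397 to 2.62, 1.98 and 1.79 CPM (1.80, SE 0.59, adjusted p 0.0059). MYB60, known from guard cells, fell from 244, 237 and 411 to 0.569, 0.494 and 0.896 CPM (-8.83, SE 0.34, adjusted p 1.1e-32). MYB60 held most of the share of the stomatal list at 18 DAP, so the fall of that share was mainly the fall of this gene.

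Markers of the seed's other tissues moved as well. Of 31 tested seed coat genes 6 were higher and 23 lower (median -3.17, or -2.54 with the 5 at the floor at 22 DAP set to their bound), and in wild type 3 were higher and 24 lower. Their summed share ranged over 0.264% to 0.341% of the counts at 18 DAP, 0.0984% to 0.106% at 20 DAP, then 0.107% to 0.118% at 22 DAP. Between 18 and 20 DAP 27 of the 31 were called lower, against 27% of the genes tested. Of the storage protein genes 4 of 13 were, which is near that share. Between 20 and 22 DAP 19 of the 31 and 13 of 13 storage protein genes were called lower, against 29.5% of the genes tested. TT10, a laccase of the coat, fell from 1156, 1136 and 1464 through 262, 237 and 306 to 7.46, 1.48 and 10.5 CPM (-7.60, SE 0.56, adjusted p 3.8e-19), and GPAT5, of coat suberin, from 52.9, 48.2 and 49.3 to 0.171, 0 and 0.620 CPM (-7.59, SE 0.45, adjusted p 1.8e-19). FAR4, FAR5, TT2 and TT16 were at 0 in the 3 libraries of 22 DAP. Of the endosperm list 4 genes were tested and 4 were lower (2 with library totals and 2 with DESeq2), and it held 0.963% to 2.31%, 2.39% to 2.84% and 0.414% to 0.685% of the counts at 18, 20 and 22 DAP. Nearly all of that came from AT2G27380, an extensin-like gene, with 21622, 12366 and 9272 CPM at 18 DAP, then 3200, 2888 and 4605 CPM at 22 DAP (-2.02, SE 0.27, adjusted p 9.4e-10), which rose in wild type from 10998 to 24003 CPM. Of 5 tested fruit wall and replum genes 2 were higher and 3 lower. SHP2 fell from 43.9, 52.0 and 63.9 to 0, 0.247 and 0.276 CPM (-8.23, SE 0.54, adjusted p 1.0e-15) and ALC rose from 4.00, 4.52 and 3.34 to 18.8, 16.9 and 14.5 CPM (2.09, SE 0.28, adjusted p 1.5e-09). The part of these tissues in the other results was not tested.

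The genes with the largest fitted rises began from no count. Among genes whose libraries did not overlap and whose mean at 22 DAP was at least 20 CPM, the 10 with the largest fitted log2 fold change were all at 0 in the 3 libraries of 18 DAP. Fitted values of such genes depend on the prior count, so this is no order by size, and genes with counts at both stages, such as PYK10, rose by more than the bounds given below. The 10 were JAL33 and JAL31, of the jacalin-type lectins that accompany PYK10, the Rubisco subunits RBCS2B and RBCS1B, the peptidases scpl44 (a serine carboxypeptidase-like protein), AT1G29090 (a cysteine proteinase) and AT5G45650 (a subtilase), the cytochrome P450 CYP81F4 of indole glucosinolates, and AT1G58807 with AT1G59124. JAL33 (AT3G16450, chr3:5588292-5590085) had 85.6, 111 and 70.2 CPM at 22 DAP, at least 352-fold higher (adjusted p 5.8e-17). For scpl44 the values were 84.6, 69.3 and 81.5 CPM, at least 311-fold higher (adjusted p 1.4e-12), and 8.55, 8.64 and 27.8 CPM at 24 DAP, lower again. CYP81F4 reached 48.5, 36.4 and 36.3 CPM, at least 159.9-fold higher (adjusted p 2.4e-15). AT1G58807 and AT1G59124 are near-identical copies with 32.3, 39.2 and 34.9 CPM each at 22 DAP, and how the counting divided reads between them is uncertain. Both were also called higher in wild type, from 0 to a mean of 37.7 CPM, and their course difference was not called. The rest of the 10 were not called in wild type, where their 22 DAP means were at most 0.610 CPM.

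The 10 genes with the largest fitted falls ended at or near 0, where the same limit holds. AT1G49960, a xanthine/uracil permease family gene, went from 116, 133 and 147 CPM to 0 in the 3 libraries, at least 705-fold lower (adjusted p 2.5e-15), and PDLP4, a plasmodesmata-located protein, from 64.1, 67.8 and 73.8 CPM to 0, at least 365-fold lower (adjusted p 1.8e-16). AT1G62080 fell from 2185, 2009 and 1619.6 to 0.740, 0.309 and 0.345 CPM (-11.96, SE 0.78, adjusted p 4.4e-22). The others were AT5G49350, AT5G20860, COBL6, MLP328, AT5G57400, AT1G62000 and AT1G23200, with 18 DAP means of 44.7 to 1882 CPM and 22 DAP means of at most 0.572 CPM. All 10 were also called lower in wild type.

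Set gene by gene against wild type, the course kept its direction for many genes and turned for others. Of the 7397 genes that rose in abi3-12 dog1-4, 3230 (43.67%) also rose in wild type and 1009 (13.64%) fell there. Of the 7333 that fell, 3960 (54.00%) also fell in wild type and 1308 (17.84%) rose there. Over all genes tested, 30% were called higher and 30.9% lower in wild type. The same direction was thus more frequent than these shares, and the opposite direction less frequent. The largest course differences involved groups at or near 0. DELTA-VPE, a vacuolar processing enzyme of the seed coat, had 19.6, 26.7 and 41.6 CPM at 18 DAP, then 100.2, 95.4 and 70.3 CPM at 22 DAP, while wild type went from 44.7, 39.0 and 54.9 CPM to 0 in its 3 libraries. PLAT2, a lipase/lipoxygenase domain protein, had 8.62, 14.9 and 11.6 and 79.7, 90.9 and 66.7 CPM against 14.5, 4.35 and 7.48 CPM and then 0 in wild type. In the opposite sense, AT5G66430, an S-adenosylmethionine-dependent methyltransferase family gene, went from 8.15, 2.89 and 2.46 to 0, 0 and 0.207 CPM and in wild type from 24.3, 37.9 and 22.6 to 199.6, 299 and 163 CPM. AT3G49300, annotated as a proline-rich family gene, went from 21.5, 21.4 and 42.7 CPM to 0 and in wild type from 28.9, 27 and 30.3 to 20.3, 31.5 and 20.5 CPM.

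**Figure D5:**
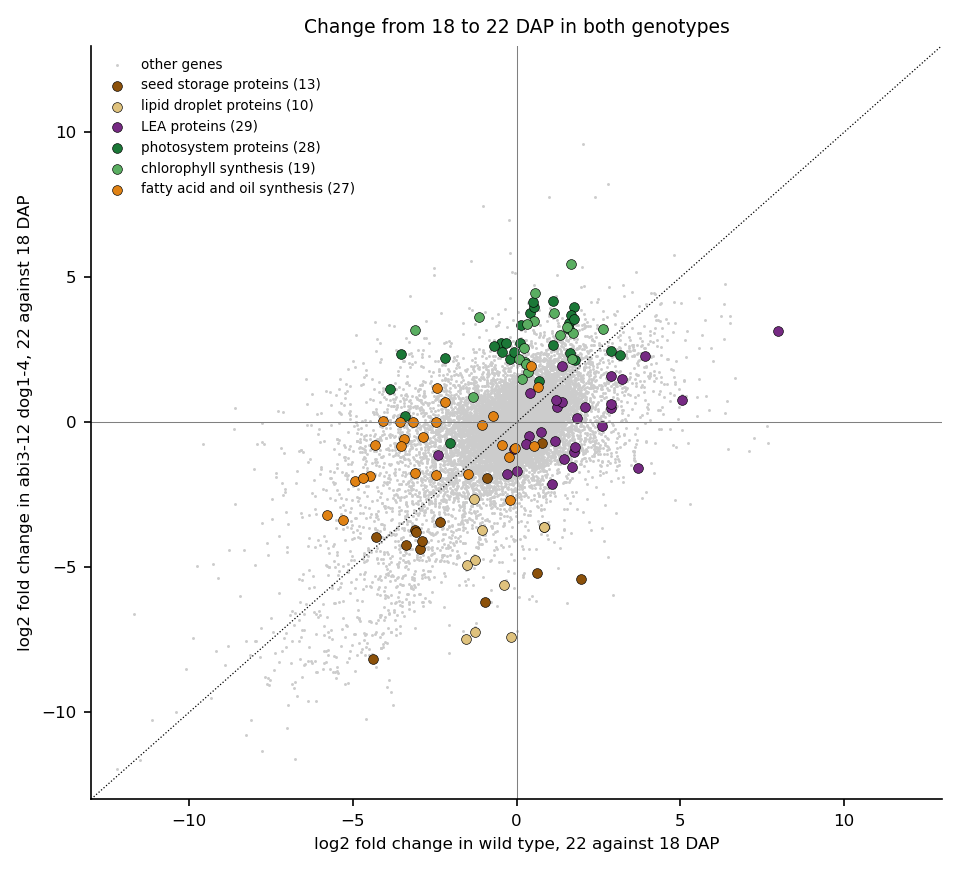
Log2 fold change of 22 against 18 DAP in abi3-12 dog1-4 (vertical) and in wild type (horizontal) for 16183 genes with a mean of at least 1 CPM at either stage of each line and no group at 0, with members of 6 lists in colour and a dotted line of equal change. Most storage and all lipid droplet genes lie below the line, most LEA genes right of zero and below it, and most photosystem and chlorophyll synthesis genes above it.

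The courses of abi3-12 and of the line labelled abi3-12 dog1-4 cyp707a2, whose CYP707A2 transcript was present at 22 DAP, differed from that of abi3-12 dog1-4 in storage, LEA and photosynthesis genes. The storage protein list made up 31.7% ± 0.375 (SD, n = 2) of the counts at 18 DAP and 11.7% ± 2.86 (SD, n = 3) at 22 DAP in abi3-12, and 27.8% ± 1.85 and 9.98% ± 3.19 (SD, n = 3 each) in abi3-12 dog1-4 cyp707a2. The course difference of abi3-12 dog1-4 against abi3-12 was called for 11094 genes (53.1%; 26.1% positive, 27% negative) and against abi3-12 dog1-4 cyp707a2 for 10978 (52.5%; 26.1% positive, 26.4% negative). Photosystem genes differed positively in 37 and 39 of 42 cases and chlorophyll synthesis genes in 22 of 23 in both comparisons. LEA genes differed negatively in 21 and 22 of 29 and positively in 2 and 0. PYK10 had 2.96, 0.772 and 7.16 CPM at 18 DAP, then 8.03, 15.8 and 8.10 CPM at 22 DAP in abi3-12 dog1-4 cyp707a2 (course difference 8.00, adjusted p 2.8e-07), and PER1 had 1516, 1893 and 1844 and 740.3, 599 and 679.6 CPM there (course difference -4.05, adjusted p 1.2e-12). OLEO1 kept 6374, 7475 and 5715 CPM in abi3-12 and 6479, 8216 and 6939 CPM in abi3-12 dog1-4 cyp707a2 at 22 DAP, against 515, 369.8 and 752 CPM in abi3-12 dog1-4, and the 3 sets of libraries did not overlap with the latter.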

How the data were processed

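Polyadenylated RNA of whole seeds was sequenced as strand-specific libraries, per the labels' protocols. The deposited table holds counts of reads per gene for 37336 genes, not normalized, in 123 libraries, of which 92 form batch B. The submitters' processing notes name HISAT2 2.1.0, StringTie 1.3.2, Cufflinks, SAMtools and TAIR10 without roles or order, and the rule by which the authors counted reads shared by gene copies is not given in the sources used here. Groups follow the labels, and 0 columns of per-sample values were left unused.

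From these counts, genes were filtered with filterByExpr (minimum count 10), which kept 20912. Another 12584 genes had no count in the 6 libraries. Libraries were scaled with TMM, and edgeR 4.0.16 (R 4.3.3, limma 3.58.1) fitted its quasi-likelihood model over the 92 libraries of batch B, with 1 coefficient per group and a common dispersion of 0.0168. A gene was called at a Benjamini-Hochberg adjusted p under 0.05 over all genes tested. Standard errors are the log2 fold change divided by the root of F. A course difference is the interaction of line and stage. Groups at 0 were set to a floor of 3 counts per library for a bound, which covers counting error only. Depth limits precision, and counts between replicates of abi3-12 dog1-4 differed by more than sampling noise in all pairs. Promoters were matched on locus tags to RefSeq TAIR10.1, where 37051 genes matched. Resemblance of stages used log2 CPM with a prior count of 2.

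Alternatives were library totals, RLE scaling, no filter, a filter at 1 CPM, a replicate block, a fit on the compared groups only, DESeq2 1.42.0 (with a local dispersion trend) and leaving out each library. The leave-one-out fits kept the genes and the dispersion trend of the whole fit. In data simulated from these libraries (20698 genes), changes of 1 and 2 on the log2 scale were recovered for 89% and 98% of genes between 22 and 18 DAP, with 9 calls among 20498 genes without a change, and for 56% and 87% in the course difference against wild type, with 5 such calls. The simulation changed only 100 genes per size, with at least 10 expected counts at 18 DAP, and held all others equal between the stages. Spread came from the dispersion trend alone. It therefore does not give the recovery or false calls of the real comparison, where 70.4% of genes were called. Genes are named by list and role, as the 4 loci ABI3, DOG1, ABA2 and CYP707A2, as the 10 largest rises and 10 largest falls among called genes without overlap and with at least 20 CPM, and as the 5 largest course differences in each direction. The comparison, lists and genes were chosen with earlier results of these data known.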

Additional observations from a re-analysis of the deposited data

Results flagged for a closer look

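The change from 18 to 22 DAP differed between abi3-12 dog1-4 and each of the other lines by the test of the difference itself. It did so for 11009 genes against wild type, 11094 against abi3-12 and 10978 against abi3-12 dog1-4 cyp707a2 (edgeR's quasi-likelihood test, adjusted p under 0.05). The 3 counts share the libraries of abi3-12 dog1-4.

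Among single genes, the largest positive log2 course differences against wild type were 14.40 for BGLU28 (adjusted p 1.6e-14), 13.66 for DELTA-VPE (adjusted p 1.6e-11), 12.22 for PLAT2 (adjusted p 1.8e-11), 11.86 for AT5G45670 (adjusted p 0.0014) and 11.71 for AT4G29690 (adjusted p 1.0e-07). The largest negative ones were -12.18 for AT5G25450 (adjusted p 1.2e-12), -11.14 for AT3G49300 (adjusted p 3.1e-16), -10.85 for AT3G16120 (adjusted p 3.0e-15), -8.91 for AT5G66430 (adjusted p 3.7e-16) and -8.89 for AT2G36540 (adjusted p 5.2e-07). In each of these genes at least 1 of the 4 groups had a mean of 0 CPM, or of 0.0689 CPM in AT5G66430, so these fitted terms depend on the prior count and are no bound on the size. BGLU28, a beta-glucosidase, had no count at 18 DAP and 4.95, 9.94 and 5.86 CPM at 22 DAP in abi3-12 dog1-4, against 57.0, 65.9 and 77.7 and 1.47, 3.58 and 0 CPM in wild type. AT3G16120 had 6.08, 2.50 and 4.13 and 10.3, 15.3 and 9.31 CPM, against 0 and then 55.2, 53.6 and 51.6 CPM in wild type.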

How the results depend on the processing

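All counts of called genes in the 7 comparisons stayed within 1.5 times the main count under every alternative run. For 22 against 18 DAP (14730 called) they were 14762 with RLE scaling, 15459 with library totals, 14943 without a filter, 14525 with a filter at 1 CPM, 13324 with only the compared groups and 13873 with DESeq2. Scaling set the balance of directions: with library totals 71.1% of the calls were higher from 18 to 22 DAP (main 50.2%), 75.5% from 20 to 22 DAP (main 53.7%), 68.3% in wild type (main 49.2%) and 64.5% in the difference against abi3-12 dog1-4 cyp707a2 (main 49.6%). Replicate numbers did not pair the libraries (correlations of deviations -0.03, 0.03 and -0.03), and with a replicate block 14697 genes were called from 18 to 22 DAP, 10326 from 18 to 20 DAP, 13298 from 20 to 22 DAP, 12719 in wild type, and 10957, 11034 and 10931 in the differences against wild type, abi3-12 and abi3-12 dog1-4 cyp707a2. Leaving out 1 library gave 13944 to 14222 calls from 18 to 22 DAP, 8816 to 9966 from 18 to 20 DAP, 12326 to 12723 from 20 to 22 DAP, 11768 to 12287 in wild type, and 10303 to 10827, 9580 to 11020 and 10043 to 10851 in the same 3 differences. Leaving out an abi3-12 library at 18 DAP leaves 1, which is assumed to vary like the other groups.

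Among the named genes, the fitted fold change from 18 to 22 DAP of some moved by over 1.5 times when 1 library was left out, with the direction and call kept. The 1.5 times refers to the fold itself, and what follows is its log2 value. Without replicate 3 of 22 DAP it was -7.17 for TIP3;1, -6.43 for BETA-TIP, -6.11 for PER1, -5.45 for PYL3, -7.88 for OLEO4, -8.96 for GPAT5, -8.81 for AT1G03890, -4.50 for AT5G50600, -4.51 for AT5G50700, -14.38 for AT1G23200 and -8.74 for AT5G66430. Without replicate 1 of 18 DAP it was 7.67 for PORC, 9.97 for GA3OX2, 7.19 for CYP707A3, 14.27 for BGLU22, 5.66 for AT5G45670, -5.19 for AT5G66430 and -4.65 for AT2G36540, and without replicate 3 of 18 DAP 3.02 for XCP2, 5.70 for PORC, 8.26 for CYCB1;1 and 7.87 for AT5G45670. Without replicate 1 or 2 of 22 DAP it was -5.58 or -6.87 for BGLU19, -7.61 for SHP2 without the former and -6.99 for GPAT5 without the latter. HSFA9 was not called without replicate 1 of 18 DAP (-1.40, adjusted p 0.27). With DESeq2 the calls of DELTA-VPE, TT16 and TT2 were lost (adjusted p 0.099, 0.19 and 0.63), with only the compared groups that of RAB18 (AT5G66400, 0.18), and with library totals MOD1 was called higher (0.51, adjusted p 0.033). Beside the list counts given with the lists, library totals left 0 photosystem genes, 1 oil breakdown gene, 1 expansin or mannanase, 1 vascular gene and 1 stomatal gene called lower.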

Other observations

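After 22 DAP the storage protein share of abi3-12 dog1-4 was 2.49% ± 1.16 (SD, n = 3) of the counts at 24 DAP and 1.32% ± 0.337 in dry seed. The photosystem share was 0.242% ± 0.0494 and 0.361% ± 0.0107. The site II element TGGGCC, searched on both strands of the same promoter windows, stood in 16.5% of all promoters read, in 16.6% of those of genes at least 2-fold higher at 22 DAP and in 9.47% of those at least 2-fold lower.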
